A study of Homo sapiens with 6 samples.

Results

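The matrix metalloproteinases (MMPs) and the tissue inhibitors of metalloproteinases (TIMPs) are described here in IMR90 cells depleted of macroH2A1. The 10 genes MMP1, MMP2, MMP3, MMP10, MMP12, MMP14, MMP16, TIMP1, TIMP2 and TIMP3 were chosen by name, and all 10 were matched by Ensembl identifier among the 57659 genes of the count files. They and the lists below were chosen with earlier results of these data known. The shares over all genes set beside them are therefore a description, not a test. RNA was sequenced from IMR90, a line of human lung fibroblasts from fetal tissue, in 2 groups of 3 libraries. The knockdown cells carried a short hairpin RNA against macroH2A1, a histone H2A variant that carries a bulky macro domain, and the control cells a hairpin against firefly luciferase, which has no target in human cells. Both groups therefore express a hairpin, and neither is untreated. The sources used here do not give whether the cells of a group came from 1 clone or a pool, how the hairpins were delivered or how many hairpins were used per target. The series calls the libraries biological replicates without saying whether they came from separate cultures, so p-values measure the spread between these libraries.

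MMPs are zinc-dependent proteases that cleave collagens, laminins and other proteins of the extracellular matrix. Most are made as inactive precursors and are switched on by cleavage, and TIMPs bind the active site of the mature enzymes and block it. Fibroblasts are a main source of both in connective tissue, where the balance between them helps to set how fast matrix is turned over. MMP14, which sits in the cell membrane, cleaves the precursor of MMP2 in a complex in which TIMP2 bridges the enzyme and its substrate.

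The active site shows how closely the enzymes are related. The stretch of coding sequence for the zinc-binding motif is given below for 6 of the 7 MMPs, from GENCODE 29 transcripts, 5′ to 3′, with the codons of the 3 zinc-binding histidines in capitals. It is shown because similarity between members decides how well their reads can be told apart.
MMP1: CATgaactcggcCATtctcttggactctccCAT
MMP2: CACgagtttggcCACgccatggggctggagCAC
MMP3: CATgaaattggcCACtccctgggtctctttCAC
MMP10: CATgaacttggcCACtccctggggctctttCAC
MMP12: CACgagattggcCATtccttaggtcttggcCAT
MMP14: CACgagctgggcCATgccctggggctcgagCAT
Of the 33 bases, 18 were the same in all 6 genes. MMP3 and MMP10, the stromelysins, differed at 2 of the 33 bases and were 85.1% identical over 1428 aligned coding bases, whereas the other pairs of MMPs were 59.5% to 67.4% identical and the pairs of TIMPs 61.3% to 62.0%. Of the 50-base windows of the MMP3 transcript, 3.00% also occurred in MMP10, and none of those of MMP14, TIMP1 or TIMP3 occurred in another gene. Sharing was largest for TIMP2, with 13.0% of its windows in CEP295NL or ENSG00000267601, either strand counted. MMP1 shared 2.9% with WTAPP1 and MMP2 3.4% with ENSG00000279030.

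The libraries held 3741087 to 6421605 reads assigned to genes, so 3 reads of a gene amount to 0.467 to 0.802 counts per 1000000 (CPM). The targeted gene, MACROH2A1, averaged 40.9 ± 2.51 CPM in knockdown cells and 88.3 ± 3.62 CPM in control cells (SD, n = 3 each). The cells were checked against marker genes of lung cell types. The 12 fibroblast markers summed to 15035 to 16389 CPM in knockdown libraries and 10584 to 12196 CPM in control libraries. Of the 11 that were tested, 5 were called higher. The 10 macrophage markers summed to 4.29 to 5.44 CPM in knockdown and 5.49 to 7.44 CPM in control libraries, with 9 of 10 at no more than 3 counts in total. The 12 epithelial markers summed to 7.52 to 12.6 CPM in knockdown and 28.1 to 30.2 CPM in control libraries, most of it from KRT18, with SFTPB and SCGB1A1 at 0 counts. Of the 2 epithelial markers tested, KRT18 was called lower, with 8.19 ± 2.64 CPM in knockdown cells and 24.5 ± 1.54 CPM in control cells (SD, n = 3 each). The 8 endothelial markers summed to 137 to 145 CPM in knockdown and 60.8 to 65.4 CPM in control libraries, nearly all from TEK, with no read assigned to PECAM1 or EMCN. Both endothelial markers that were tested were called higher, TEK and KDR, and KDR had 51, 33 and 27 counts in knockdown and 2, 2 and 1 in control libraries. KDR reached the counts needed for testing only in the knockdown libraries. The 8 smooth muscle markers summed to 911 to 942 CPM in knockdown and 863 to 939 CPM in control libraries, and none was called. Over all genes tested, 3.9% were called higher and 4.31% lower. The part of these marker differences in the results below was not tested.

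Depletion of macroH2A1 went with less MMP1 and with more MMP2, MMP14 and TIMP3. Of the 10 genes, 7 had enough counts to be tested, and 4 of these passed (quasi-likelihood test of edgeR, p adjusted by Benjamini-Hochberg over all genes tested, threshold 0.05). MMP2, MMP14 and TIMP3 were higher and MMP1 was lower. Over all 13445 genes tested, 8.21% were called, 3.9% higher and 4.31% lower. The median log2 fold change, knockdown over control, was 0.18 for the 7 genes and 0.0067 for all genes tested. MMP16, TIMP1 and TIMP2 did not pass, and MMP3, MMP10 and MMP12 had too few counts to be tested. The groups did not overlap for the 4 called genes, as was the case for 30.4% of all genes tested. The number of called genes among the 7 was 2, 1 and 1 without knockdown replicate 1, 2 and 3, and 2, 1 and 3 without control replicate 1, 2 and 3.

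**Figure D1:**
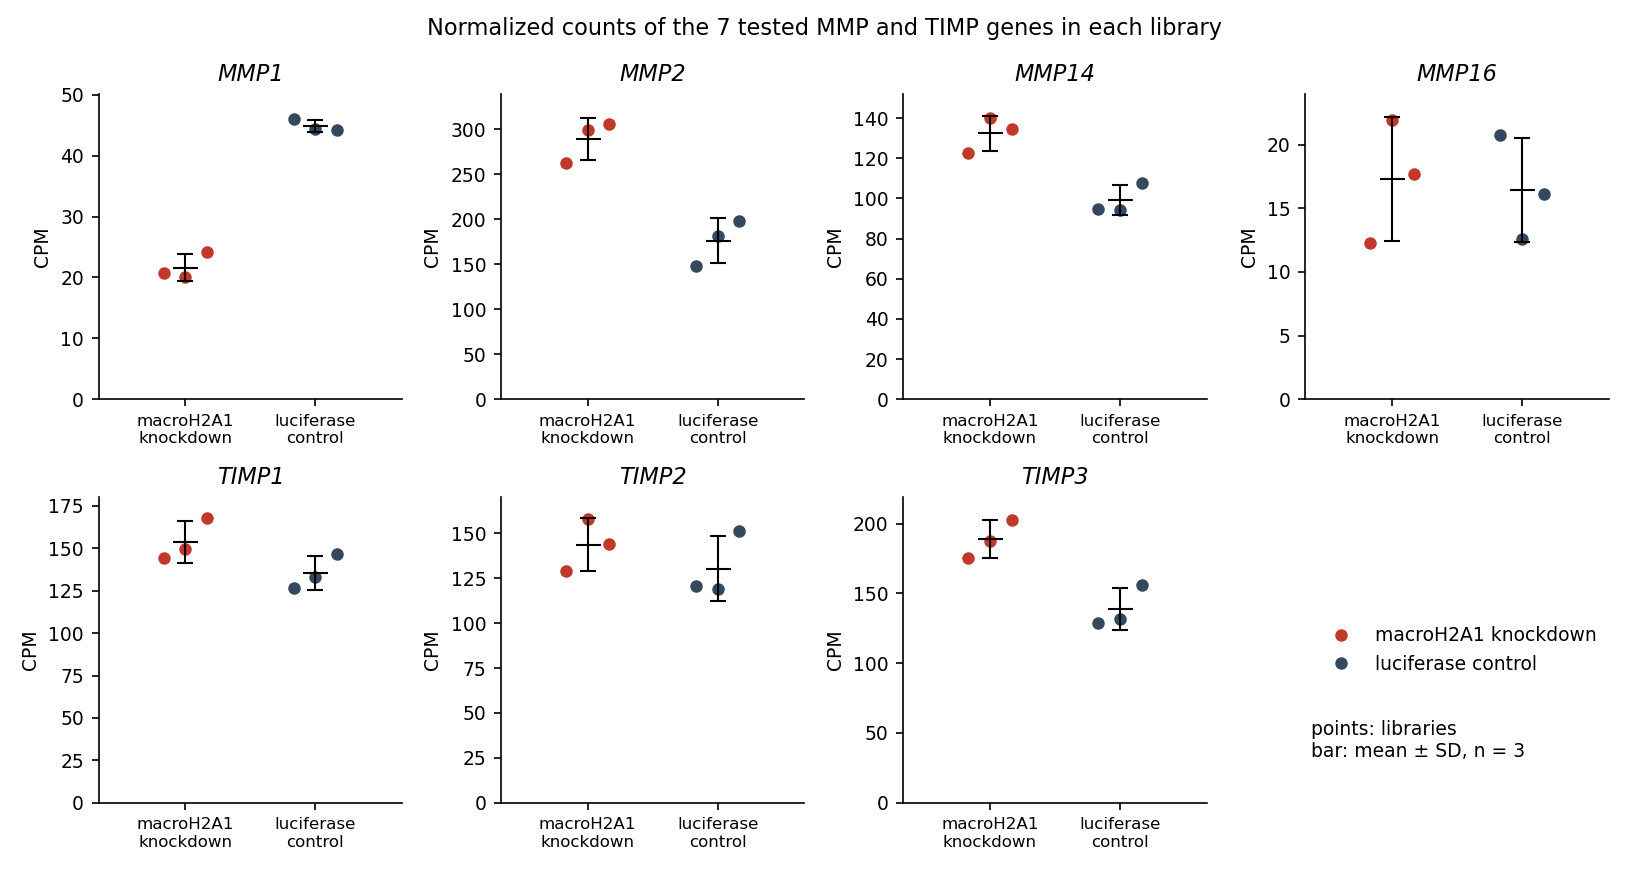
Normalized counts (CPM, linear axes from 0) of the 7 tested genes in each library, with macroH2A1 knockdown on the left and luciferase control on the right of each panel. Points are libraries and bars are the mean ± SD (n = 3). The groups do not overlap for MMP1, MMP2, MMP14 and TIMP3, and they overlap for MMP16, TIMP1 and TIMP2.

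The collagenase gene MMP1 was lower in knockdown cells. MMP1 (ENSG00000196611, chromosome 11) encodes interstitial collagenase, which cuts intact fibrillar collagen. It had 105, 92 and 90 counts in knockdown libraries, against 291, 194 and 167 counts in control libraries. After scaling these were 20.8, 20.01 and 24.1 CPM in knockdown cells and 46.0, 44.4 and 44.1 CPM in control cells. The highest knockdown library lay well below the lowest control library, and the control libraries differed little among themselves. The mean was 21.6 ± 2.18 CPM in knockdown cells and 44.8 ± 1.04 CPM in control cells (SD, n = 3 each), a 2.08-fold decrease with a log2 fold change of -1.05 (SE 0.09, 95% interval -1.27 to -0.84, edgeR adjusted p = 0.00175). In bulk RNA, fewer cells that express a gene and less of its RNA per cell cannot be told apart. MMP1 shares 150 exon bases with WTAPP1, a pseudogene on the opposite strand that had 3 counts in knockdown and 3 in control libraries. The call held in all 16 alternative settings, where the log2 fold change lay between -1.13 and -0.9996.

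MMP1 lies in a cluster of 9 MMP genes on chromosome 11, in the order MMP7, MMP20, MMP27, MMP8, MMP10, MMP1, MMP3, MMP12 and MMP13, and its immediate neighbours there were near or below the limit of detection. MMP3, stromelysin-1, which cleaves many matrix proteins and other MMP precursors, had 9, 7 and 4 counts in knockdown libraries and 10, 5 and 6 counts in control libraries. The ratio of its summed counts per depth was 1.03, with an exact 95% counting interval of 0.530 to 2.00. MMP10, stromelysin-2, had 1, 3 and 0 counts in knockdown libraries and 1 in each control library, a ratio of 1.44 with an interval of 0.244 to 9.84. A difference in MMP10 was not detectable at this depth. MMP12, the elastase of macrophages, had no read in any library, which allows up to 0.107 CPM over the 6 libraries together. A count of 0 says that no read was assigned to the identifier ENSG00000262406. It does not show that the gene is silent, because the annotation used for counting is not known here, identifiers differ between annotations and reads that overlap several genes are left out. The same limit holds for the marker PECAM1. Of the rest of the cluster, MMP7, MMP8 and MMP20 had no counts, MMP27 had 2 in knockdown and 0 in control libraries, and MMP13 had 0 in knockdown and 1 in control libraries. These intervals and limits cover counting error only.

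The gelatinase MMP2 rose, and it was the most abundant of the MMPs listed per length in both groups. MMP2 (ENSG00000087245, chromosome 16) encodes gelatinase A, which degrades denatured collagen and the type IV collagen of basement membranes. It had 1325, 1375 and 1141 counts in knockdown libraries and 939, 795 and 748 in control libraries. Scaled, the values were 262.1, 299 and 305.6 CPM in knockdown cells, against 148.5, 181.8 and 197.7 CPM in control cells. All knockdown libraries were above all control libraries, although control replicate 1 was the lowest of its group by some distance. The means were 289 ± 23.5 CPM in knockdown cells and 176 ± 25.1 CPM in control cells (SD, n = 3 each), a 1.64-fold increase with a 95% interval of 1.34 to 2.01 (log2 fold change 0.72, SE 0.12, edgeR adjusted p = 0.0178). Without knockdown replicate 2, knockdown replicate 3 or control replicate 2, the adjusted p was 0.0595, 0.0665 or 0.0678, with log2 fold changes of 0.69, 0.68 and 0.74.

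Of the membrane-anchored enzymes, MMP14 rose and MMP16 did not pass the test; the difference between them was not itself tested. MMP14 (ENSG00000157227, chromosome 14), also called MT1-MMP, is the membrane enzyme that activates MMP2. Its counts were 620, 643 and 502 in knockdown libraries and 600, 413 and 407 in control libraries. Scaled, they came to 122.6, 139.8 and 134.5 CPM in knockdown cells, against 94.9, 94.4 and 107.6 CPM in control cells. The groups did not overlap. MMP14 averaged 132 ± 8.80 CPM in knockdown cells and 99.0 ± 7.45 CPM in control cells (SD, n = 3 each), a 1.34-fold increase (95% interval 1.16 to 1.54, log2 fold change 0.42, SE 0.09, edgeR adjusted p = 0.0343). This call is close to the threshold: it was lost whenever any 1 of the 6 libraries was left out (adjusted p 0.0506 to 0.117) and with scaling by total gene counts (adjusted p = 0.0667), while the log2 fold change stayed between 0.38 and 0.48.

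MMP16 (ENSG00000156103, chromosome 8), or MT3-MMP, was the lowest of the tested genes. It had 12.3, 21.96 and 17.7 CPM in knockdown cells and 20.7, 12.6 and 16.1 CPM in control cells. The groups overlapped, and the spread within each was wide. Its means were 17.3 ± 4.86 CPM in knockdown cells and 16.5 ± 4.09 CPM in control cells (SD, n = 3 each), with a log2 fold change of 0.06 and a 95% interval of -0.56 to 0.68 (edgeR adjusted p = 0.929). The sign changed in 3 of the 16 alternative settings, so no direction can be given.

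Of the inhibitors, TIMP3 rose, and TIMP1 and TIMP2 did not pass the test. TIMP3 (ENSG00000100234, chromosome 22) binds to the matrix itself and inhibits ADAM proteases as well as MMPs. It had 888, 864 and 757 counts in knockdown libraries and 813, 577 and 591 in control libraries. In CPM these were 176, 188 and 203 in knockdown cells, against 129, 132 and 156 in control cells. The lowest knockdown library was above the highest control library. Mean levels were 189 ± 13.6 CPM in knockdown cells and 139 ± 15.1 CPM in control cells (SD, n = 3 each), a 1.36-fold increase (95% interval 1.15 to 1.60, log2 fold change 0.44, SE 0.10, edgeR adjusted p = 0.0448). The call was lost with scaling by total gene counts (adjusted p = 0.0747), with a filter of at least 20 counts in total (adjusted p = 0.0618) and without any library other than control replicate 3 (adjusted p 0.0707 to 0.141), while the log2 fold change stayed between 0.39 and 0.53.

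TIMP1 (ENSG00000102265, chromosome X), a secreted inhibitor that acts weakly on membrane-type MMPs, had 144, 149 and 168 CPM in knockdown cells and 127, 133 and 146 CPM in control cells. Only the highest control library reached into the knockdown range. The log2 fold change was 0.18 with a 95% interval of -0.03 to 0.40 (edgeR adjusted p = 0.274). TIMP2 (ENSG00000035862, chromosome 17), which inhibits MMP2 and takes part in its activation, had 129, 158 and 144 CPM in knockdown cells and 121, 119 and 151 CPM in control cells, and the groups overlapped. Its log2 fold change was 0.14 with an interval of -0.15 to 0.43 (edgeR adjusted p = 0.539). The differences of TIMP1 and TIMP2 from TIMP3 were not tested. TIMP2 shares 198 exon bases with CEP295NL, which had 3, 5 and 4 counts in knockdown and 2, 2 and 8 in control libraries. TIMP2 also shares 367 exon bases with ENSG00000267601, an antisense gene for which no counts were given. TIMP1 and TIMP3 lie inside the synapsin genes SYN1 and SYN3, on the opposite strand and with no shared exon bases. SYN1 had 5 counts in knockdown and 1 in control libraries, SYN3 had none, and SYN2, which was listed with them, had 13 counts in knockdown and 19 in control libraries.

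**Figure D2:**
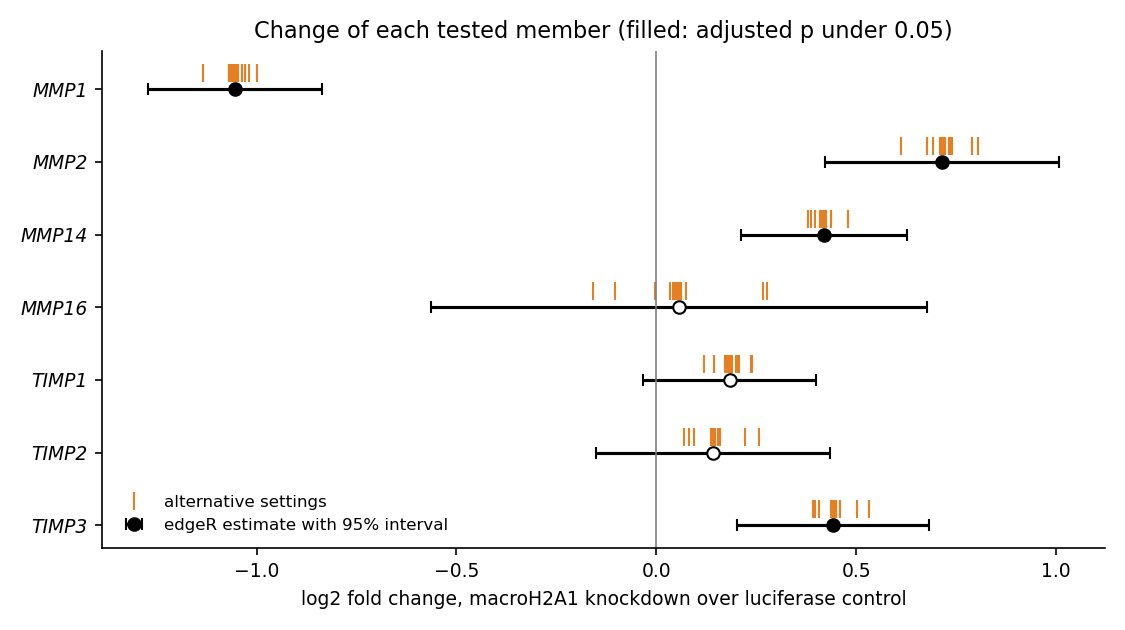
Log2 fold change, macroH2A1 knockdown over luciferase control, of the 7 tested genes with 95% intervals from the edgeR fit (3 libraries per group), filled points for adjusted p under 0.05 and orange ticks for the 16 alternative settings. MMP1 lies at -1.05, and MMP2, MMP14 and TIMP3 lie above 0 with intervals that do not reach it, while the intervals of MMP16, TIMP1 and TIMP2 include 0.

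The authors' deposited table, made with DESeq, held 8 of the 10 genes and gave 4 of them an adjusted p under 0.05. It compares the same 6 libraries, so it is not independent of the results above. How many of its 11638 genes passed that threshold was not counted here. With edgeR limited to those genes, 2060 passed, among them 4 of the 8. In the authors' deposited table the log2 fold changes were -1.04 for MMP1 (adjusted p = 2.62e-11), 0.73 for MMP2 (8.94e-08), 0.43 for MMP14 (1.80e-05) and 0.45 for TIMP3 (0.000227). TIMP1 had 0.19 there with an adjusted p of 0.189. MMP10 and MMP12 were not among its genes. The table names its groups A and B; its values are read as knockdown over control because, for the 7 tested genes, they lay within 0.0245 of the log2 fold changes fitted with edgeR. For the 4 called genes its adjusted p-values were smaller than those of edgeR.

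Per length of transcript, TIMP1 was the highest of the genes in both groups. Levels of different genes are given as reads per kilobase per 1000000 (RPKM), computed from the counts and the joined exon length in GENCODE 29. In knockdown cells the order of levels was TIMP1 with 99.8 ± 8.11 RPKM, MMP2 with 58.6 ± 4.76, TIMP3 with 41.0 ± 2.95, MMP14 with 29.6 ± 1.97, TIMP2 with 25.5 ± 2.59, MMP1 with 10.98 ± 1.11 and MMP16 with 1.43 ± 0.401 RPKM (SD, n = 3). Only MMP14 and TIMP2 overlapped as neighbours in that order. In control cells the order was TIMP1 with 87.9 ± 6.51 RPKM, MMP2 with 35.7 ± 5.08, TIMP3 with 30.2 ± 3.27, TIMP2 with 23.1 ± 3.21, MMP1 with 22.8 ± 0.527, MMP14 with 22.2 ± 1.67 and MMP16 with 1.36 ± 0.337 RPKM (SD, n = 3). There MMP2 overlapped with TIMP3, and TIMP2, MMP1 and MMP14 could not be ordered. Among 10437 protein-coding genes tested, TIMP1 ranked 91 in knockdown and 116 in control cells, MMP2 ranked 191 in knockdown and 406 in control cells, and MMP1 ranked 1608 in knockdown and 698 in control cells. With the longest transcript as the length, TIMP2 moved above MMP14 in knockdown cells and above TIMP3 in control cells. MMP14 then also moved above MMP1 in control cells, with means of 26.5 and 22.8 RPKM.

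**Figure D3:**
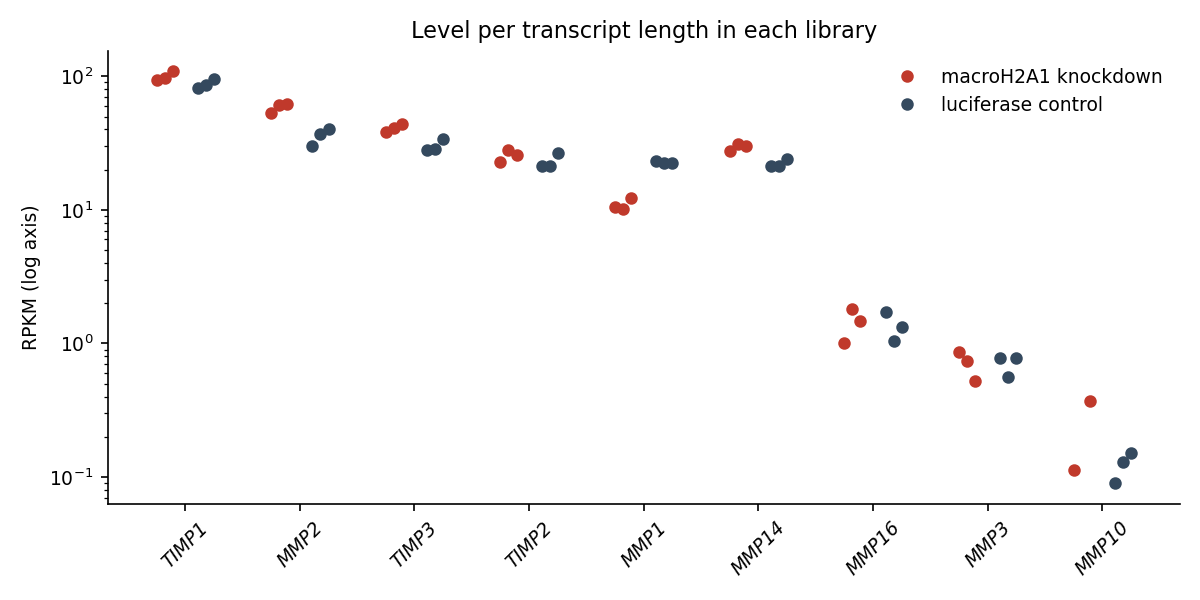
Levels per transcript length (RPKM, log axis) of the genes in each library, macroH2A1 knockdown beside luciferase control. TIMP1 is highest and MMP16 lowest of the 7 tested genes in both groups; values of 0, which include all libraries for MMP12 and 1 knockdown library for MMP10, cannot be drawn on the log axis.

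The summed level of MMP1, MMP2, MMP14 and MMP16 was made up differently in the 2 groups. MMP1 made up 10.9 ± 1.00% of the summed MMP level in knockdown cells and 27.9 ± 2.55% in control cells. MMP2 made up 58.2 ± 0.479% in knockdown cells and 43.4 ± 3.47% in control cells, and MMP14 29.5 ± 0.882% in knockdown cells and 27.1 ± 0.987% in control cells (SD, n = 3 each). The level of MMP2 was 5.36 ± 0.530 times that of MMP1 in knockdown cells and 1.57 ± 0.256 times in control cells. These shares are of RNA and follow from the levels above, so they are given as a description with no test. They also depend on the length used for each gene.

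Set against TIMP2 and TIMP1, MMP2 and MMP1 differed between the groups in opposite directions. The ratio of MMP2 to TIMP2 was 2.32, 2.16 and 2.42 in knockdown libraries and 1.41, 1.74 and 1.49 in control libraries. MMP14 to TIMP2 averaged 1.16 ± 0.0434 in knockdown libraries and 0.963 ± 0.0570 in control libraries (SD, n = 3 each). MMP1 to TIMP1 was 0.113, 0.105 and 0.112 in knockdown libraries and 0.284, 0.260 and 0.236 in control libraries. None of these ratios overlapped between the groups. How often ratios of other gene pairs overlap was not counted, while single genes did not overlap for 30.4% of all genes tested. TIMP1 and TIMP2 were the inhibitors not called, and no ratio to TIMP3 alone was computed. The fitted increase was 1.36-fold for TIMP3, against 1.34-fold for MMP14 and 1.64-fold for MMP2, so the ratios depend on the inhibitor chosen. The summed level of these 4 MMPs was 100.6 ± 7.39 RPKM in knockdown cells and 82.0 ± 5.74 RPKM in control cells, and that of the TIMPs was 166 ± 12.02 RPKM in knockdown cells and 141 ± 12.8 RPKM in control cells. Summed TIMP over summed MMP was 1.65 ± 0.0507 in knockdown cells and 1.72 ± 0.0504 in control cells (SD, n = 3 each), and the groups overlapped. These ratios compare RNA, not protein or enzyme activity, and their size depends on the length used for each gene. With the longest transcript as the length, MMP14 was below TIMP2 in both groups. The means were then 35.5 and 39.4 RPKM in knockdown cells, and 26.5 and 35.7 RPKM in control cells.

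**Figure D4:**
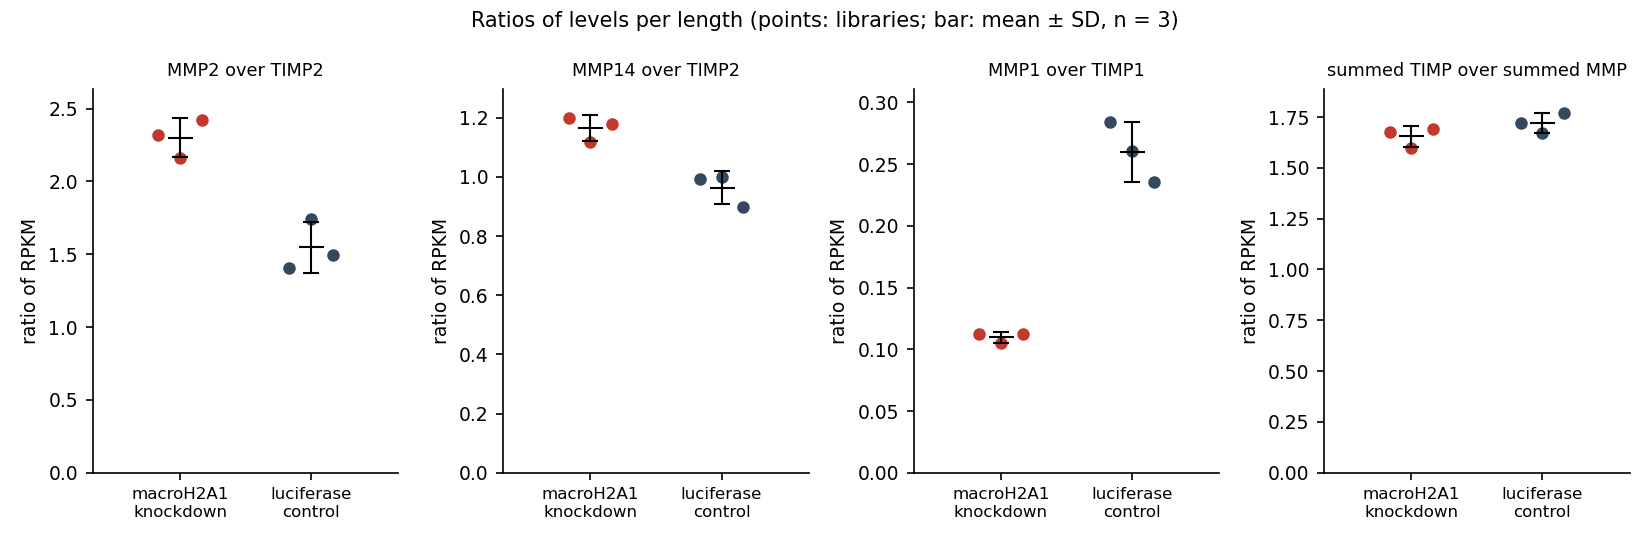
Ratios of levels per length (RPKM over RPKM) in each library, macroH2A1 knockdown left and luciferase control right, with the mean ± SD (n = 3). MMP2 over TIMP2 and MMP14 over TIMP2 are higher in all knockdown libraries, MMP1 over TIMP1 is lower in all of them, and the summed TIMP over summed MMP overlaps between the groups.

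The other MMPs and TIMP4 were low. Of 17 further family members listed, 16 were matched, MMP28 was not analysed here, and 2 could be tested. MMP11, or stromelysin-3, had 13, 16 and 15 counts in knockdown and 9, 15 and 13 in control libraries (log2 fold change 0.32, edgeR adjusted p = 0.674). MMP19 had 32, 38 and 33 counts in knockdown and 33, 26 and 31 in control libraries (log2 fold change 0.29, edgeR adjusted p = 0.522). The groups overlapped for both. MMP9, gelatinase B, had 0 counts in knockdown and 1 in control libraries, and the membrane-type enzymes MMP15, MMP17, MMP24 and MMP25 had 10, 16, 9 and 3 counts in knockdown and 7, 19, 9 and 1 in control libraries. MMP23B had 3 counts in knockdown and 0 in control libraries, MMP26 had 1 in knockdown and 2 in control libraries, TIMP4 had 6 in knockdown and 3 in control libraries, and MMP21 had none. No difference was detectable for these genes at this depth.

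Genes listed for links to the activation or control of MMPs were called in both directions. Of 24 genes listed, 21 were tested, 6 were higher and 4 lower, and 11 did not pass. Over all genes tested 8.21% were called, and the median log2 fold change was 0.18 for the list and 0.0067 for all genes. Of the higher genes, A2M, a protease inhibitor that traps many proteases, had 30, 15 and 23 counts in knockdown and 4, 2 and 2 in control libraries (edgeR adjusted p = 0.00657). A2M reached the counts needed for testing only in the knockdown libraries. PCSK5, a proprotein convertase of the furin family, averaged 29.1 ± 0.853 CPM in knockdown cells and 13.6 ± 0.981 CPM in control cells (SD, n = 3 each), 2.14-fold higher (edgeR adjusted p = 0.00173). SPOCK1, a secreted proteoglycan, was 2.11-fold higher and ITGB3, an integrin subunit, 1.62-fold higher (edgeR adjusted p = 0.0222 and 0.0119). PLAT, which encodes tissue plasminogen activator, and THBS2 were also among the higher genes. The count of 10 called genes was 6 without knockdown replicate 3, control replicate 1 or control replicate 2.

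Among the lower genes of that list, the serine protease gene PRSS23 was 2.14-fold lower (edgeR adjusted p = 0.00132). CD44, a hyaluronan receptor to which MMPs can dock, was 1.49-fold lower, and CAV1, a protein of caveolae, 1.25-fold lower (edgeR adjusted p = 0.0131 and 0.0403). RECK, a membrane-anchored MMP inhibitor, did not pass, with 91.6 ± 4.45 CPM in knockdown cells and 111 ± 2.75 CPM in control cells (SD, n = 3 each, edgeR adjusted p = 0.0543). FURIN, which cleaves the precursor of MMP14, had a log2 fold change of -0.06 with a 95% interval of -0.32 to 0.21, and BSG, an MMP inducer at the cell surface, one of 0.20 with an interval of -0.05 to 0.46. The urokinase gene PLAU and its receptor gene PLAUR did not pass (edgeR adjusted p = 0.176 and 0.164).

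Among inducers and transcription factors linked to MMP genes, 26 were listed and 20 tested, of which 2 were higher and 6 lower, against 3.9% higher and 4.31% lower over all genes tested. The median log2 fold change of the list was -0.02, and that of all genes 0.0067. FOS, a subunit of the AP-1 factor that acts on many MMP promoters, was 2.69-fold higher, with 19.8 ± 1.59 CPM in knockdown cells and 7.27 ± 1.28 CPM in control cells (SD, n = 3 each, edgeR adjusted p = 0.00449). IL1R1, the receptor of interleukin-1, a classical inducer of MMP1 in fibroblasts, was 2.47-fold higher, with 108 ± 3.89 CPM in knockdown cells and 43.7 ± 3.02 CPM in control cells (SD, n = 3 each, edgeR adjusted p = 0.000764). The AP-1 subunit gene FOSL1 was 1.69-fold lower, the growth factor FGF2 1.65-fold lower, and the ETS factors ETV5 and ETS1 1.47-fold and 1.36-fold lower (edgeR adjusted p 0.00362 to 0.0323). JUN and LIF were also called lower. AP-1 subunits were thus called in both directions. The number of called genes was 5 without knockdown replicate 2, knockdown replicate 3, control replicate 1 or control replicate 2.

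Genes for matrix proteins that MMPs cleave were called in 1 direction. Of 20 listed, 18 were tested, 11 were higher and none lower, against 3.9% higher and 4.31% lower over all genes tested. The median log2 fold change was 0.50 for the list and 0.0067 for all genes. TNC, an adhesion-modulating glycoprotein, was 2.25-fold higher, the small proteoglycan DCN 2.20-fold, the fibrillar collagen COL3A1 2.19-fold and the laminin chain LAMA4 1.92-fold (edgeR adjusted p 0.00119 to 0.00193). COL3A1 averaged 2221 ± 71.7 CPM in knockdown cells and 1015 ± 44.7 CPM in control cells (SD, n = 3 each). The type IV collagen genes COL4A1 and COL4A2, whose products MMP2 degrades, were higher, 1.41-fold and 1.52-fold (edgeR adjusted p = 0.0142 and 0.0120). FN1, fibronectin, had a log2 fold change of 0.10 with a 95% interval of -0.22 to 0.41. Without knockdown replicate 1, 2 and 3 the count of higher genes was 8, 6 and 6, and without control replicate 1, 2 and 3 it was 5, 4 and 8. COL1A2, COL3A1, DCN, COL1A1 and FN1 are also in the fibroblast marker list, whose summed level was higher in knockdown libraries.

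The ADAM family, membrane proteins related to MMPs, includes proteases that TIMP3 inhibits. Of 10 ADAM genes listed, 7 were tested and 1 was called, where 8.21% of all genes tested were called. The median log2 fold change was -0.23 for the list and 0.0067 for all genes. ADAM12 was 1.84-fold lower, with 5.06 ± 0.968 CPM in knockdown cells and 9.42 ± 0.325 CPM in control cells (SD, n = 3 each, edgeR adjusted p = 0.0398). That call was lost when any 1 library was left out and with DESeq2. ADAM17, the main sheddase of tumour necrosis factor, had a log2 fold change of 0.08 with a 95% interval of -0.20 to 0.36. ADAM10 had one of -0.23 with an interval of -0.40 to -0.06 and did not pass (edgeR adjusted p = 0.104).

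**Figure D5:**
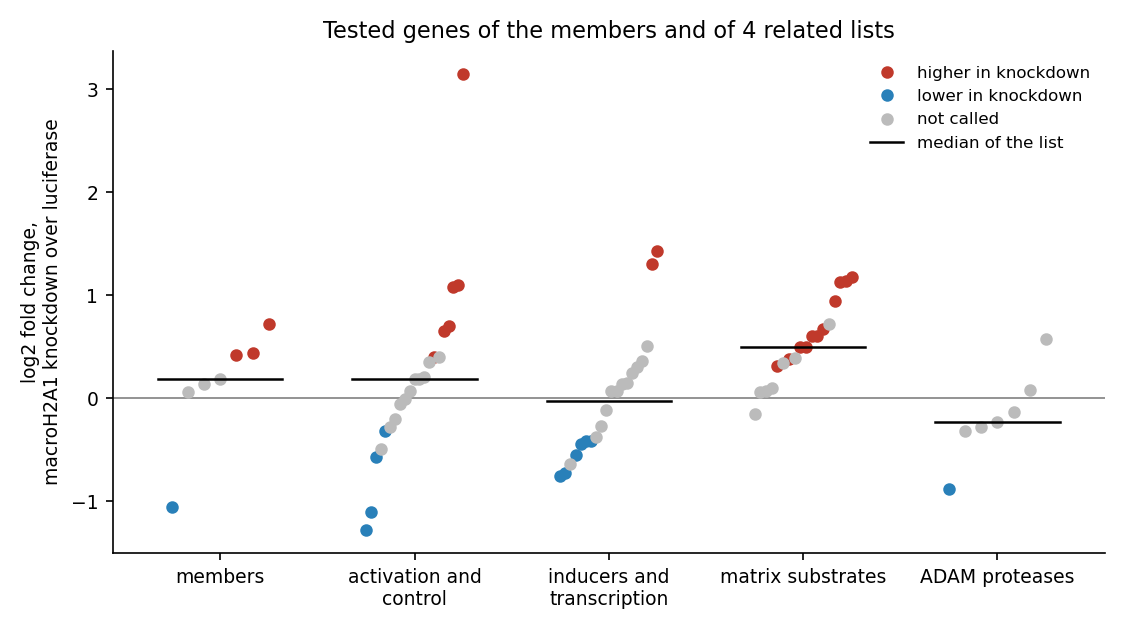
Log2 fold change, macroH2A1 knockdown over luciferase control, of each tested gene in the MMP and TIMP set and in 4 related lists, in red where called higher, blue where called lower and grey where not called, with a line at each median. Of the matrix substrates 11 of 18 are called and all 11 are higher, while the lists of activation and control and of inducers hold calls in both directions.

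Over the 6 libraries, the genes whose log2 CPM followed MMP1 most closely, of 7093 protein-coding genes with a mean of at least 10 CPM, were NDFIP2, CLDN1 and RAB21. Each had a Pearson correlation of 0.998 with MMP1. They were 1.704-fold, 7.15-fold and 1.45-fold lower in the knockdown. The points are 2 groups of 3 libraries, so the correlation mostly restates the difference between groups and is given as a description.

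Promoter sequence was at hand for MMP10, MMP14, TIMP1 and TIMP3, from RefSeq on GRCh38.p14, as 250 bases before to 50 after the start of the gene. MMP14 and TIMP3 are printed because both were called higher, MMP14 from chr14:22836335-22836634 and TIMP3 from chr22:32801455-32801754, both on the plus strand, with a match to a searched motif in capitals.
MMP14: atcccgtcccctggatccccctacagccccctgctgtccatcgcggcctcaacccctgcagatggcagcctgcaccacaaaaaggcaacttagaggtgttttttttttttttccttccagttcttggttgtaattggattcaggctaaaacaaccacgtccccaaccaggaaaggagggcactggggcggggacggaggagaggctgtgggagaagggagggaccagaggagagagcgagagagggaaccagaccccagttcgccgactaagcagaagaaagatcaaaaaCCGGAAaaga
TIMP3: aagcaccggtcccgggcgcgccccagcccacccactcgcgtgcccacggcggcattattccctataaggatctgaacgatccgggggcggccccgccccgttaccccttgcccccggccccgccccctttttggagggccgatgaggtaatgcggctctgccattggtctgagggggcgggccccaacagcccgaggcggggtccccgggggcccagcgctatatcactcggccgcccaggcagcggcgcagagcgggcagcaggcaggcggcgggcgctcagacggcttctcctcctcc
The windows were searched on both strands for the AP-1 motif TGAGTCA, whose reverse complement is TGACTCA, the TATA motif TATAAA and the ETS motifs GAGGAA and CCGGAA. MMP14 held CCGGAA 40 bases after its start, and TIMP3 held none of them. Among the 35116 promoters of the table, 17.2% held CCGGAA, 4.95% TGAGTCA, 27.9% GAGGAA and 11.53% TATAAA. The 2 windows also differed in base composition, with 55.0% G and C in MMP14 and 72.7% in TIMP3. MMP10 held TATAAA 31 bases before its start, and TIMP1 held none of the motifs. A match is not a binding site, and the lack of one says only that these letters are not in this window.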

How the data were processed

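RNA-seq libraries were made from 3 macroH2A1 knockdown and 3 luciferase control samples; per the labels' protocols, ribosomal RNA was depleted, the second strand carried dUTP and all libraries shared a lane. The authors deposited raw counts per Ensembl gene; the submitters' processing notes name CASAVA 1.7, GSNAP, HTSeq and the build hg19. The sources used here do not give the annotation, HTSeq version, strand setting or read length, and values of genes overlapping on opposite strands are therefore uncertain. Reads assigned to genes were 11.9% to 13.7% of those listed; 64.4% to 68.8% aligned to several places, 6.85% to 9.63% to none, 8.34% to 11.3% lay outside features, 1.51% to 1.85% were ambiguous and 0.326% to 0.479% of low quality, and lines that name no gene were left out. The authors also deposited a table of their comparison; the submitters' processing notes name DESeq 1.10.1. Its columns, per the file headers, are a mean signal, a ratio, its log2 and p-values before and after adjustment.

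Groups came from the sample titles. Counts were filtered with filterByExpr (minimum count 10), scaled with TMM and tested with edgeR 4.0.16 (glmQLFit, glmQLFTest, group only) in R 4.3.3, with Benjamini-Hochberg adjustment over 13445 genes. The SE is the log2 fold change over the square root of F. Alternatives used DESeq2 1.42.0, limma 3.58.1, other scalings, filters and gene sets, a replicate block and leaving out each library. Symbols, lengths and transcripts came from GENCODE 29, which matched 47399 identifiers and is on another build than hg19; promoters came from RefSeq (GRCh38.p14), 4 of 10 members matched. The members and lists were chosen with earlier results of these data known. By rule, all members were named, with up to 4 called genes of each other list per direction by size; genes named beyond these were chosen after their values were seen. A gene that the rule picked is not reported here.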

Additional observations from a re-analysis of the deposited data

Results flagged for a closer look

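Reads that fell outside annotated features, which enter none of the comparisons, took a larger share of the reads listed in every knockdown library than in every control library. The lowest share in knockdown libraries was 10.6%, and the highest in control libraries was 9.43%. Reads without a unique alignment differed the other way, with 64.4% to 66.6% in knockdown libraries and 67.6% to 68.8% in control libraries. The part of these differences in the results for MMPs and TIMPs was not tested.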

How the results depend on the processing

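Over 16 alternative settings, MMP1 kept its direction and call in all, while MMP2 lost its call in 3, MMP14 in 8 and TIMP3 in 8, each with its direction kept. The sign of MMP16, which was never called, changed with limma-voom (log2 fold change -0.0046), without knockdown replicate 2 (-0.16) and without control replicate 2 (-0.10); leaving out 1 library gave -0.16 to 0.28. Leaving out 1 library at a time gave 427 to 564 called genes over the whole table and 1 to 3 called members. It gave 6 to 9 called genes of activation and control, 5 to 6 inducers, 4 to 8 matrix substrates and 0 ADAM genes. These fits hold fewer samples. With all 6 libraries the counts were, in the same order, 1104, 4, 10, 8, 11 and 1. Limiting the fit to the genes of the authors' table gave 2060 called genes, 17 genes of activation and control and 2 ADAM genes. Scaling by total gene counts left 2 called members. DESeq2 called 0 ADAM genes and limma-voom 2. The causes were not tested.

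Same-numbered libraries did not deviate together (correlations -0.03, -0.02 and -0.17). These correlations cannot show whether same-numbered libraries were handled together. A fit with the replicate number as a block called 416 genes and 2 members (MMP1 and MMP2). It called 6 genes of activation and control, 4 inducers, 6 matrix substrates and 0 ADAM genes. The replicate block gave MMP14 an adjusted p of 0.0749 and TIMP3 one of 0.0535. Depth limits MMP3, MMP10, MMP12 and most other family members, for which no test was possible under the filter on low counts.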
